A study of Mus musculus with 12 samples.

Results

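The T-cell receptor gene segments were followed in RNA-seq libraries of mouse thymus and of thymic lymphoma. The members were the genes whose symbol marks a variable (V), diversity (D), joining (J) or constant (C) segment of the alpha (Tra), beta (Trb), gamma (Tcrg or Trg) or delta (Trd) chain. They came to 268 of the 50600 genes in the count files. The alpha and delta segments lie together on chromosome 14, the beta segments on chromosome 6 and the gamma segments on chromosome 13, with mm10 coordinates throughout. Of the 268 members, 191 had at least 1 read in some library and 77 had none, and 94 had enough reads to enter the test across genes.

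The study asked what loss of the DNA methyltransferase DNMT1 does to lymphoma driven by NPM-ALK, a human fusion kinase, in mouse T cells. It had 12 libraries, 3 of each of 4 genotypes. Ctrl thymi carried floxed Dnmt1 alleles without Cre (DNMT1 fl/fl) and came from mice of 20, 21 and 25 weeks. KO thymi added CD4-CRE, which deletes Dnmt1 in T cells, and came from mice of 20, 20 and 21 weeks. The ALK libraries were T-cell lymphoma cells of mice labelled NPM-ALK+ alone, of 22, 24 and 31 weeks. ALKKO thymi carried NPM-ALK together with DNMT1 fl/fl and CD4-CRE, came from mice of 19, 21 and 25 weeks and were not tumors. All mice were males except KO2. The transgene is driven by the Cd4 enhancer and promoter and the Cre by Cd4. Whole tissue was homogenised, and NPM-ALK with DNMT1 was measured only in tumors, so genotype and tumor state cannot be told apart in the ALK libraries.

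A developing T cell builds its receptor genes by cutting and joining DNA. The RAG1 and RAG2 recombinase joins 1 V, 1 J and, in the beta and delta loci, a D segment, and splicing then attaches the C gene. Beta, gamma and delta loci rearrange in CD4- CD8- thymocytes, and the beta chain is first displayed with the invariant pre-TCR alpha chain (Ptcra). The alpha locus rearranges later, at the CD4+ CD8+ stage, deleting the delta genes that lie inside it. The beta locus has 2 consecutive D-J-C clusters, so that Trbj1 segments can be spliced to Trbc1 and Trbj2 segments to Trbc2. A normal thymus holds very many different rearrangements, while the descendants of a single cell share theirs.

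The Trbv and Trbj segments that took most reads in the tumors carry the parts that frame the antigen-binding loop. The last 60 bases of the V segments are given 5′ to 3′ on the coding strand, with the codon of the conserved cysteine at which the loop begins in capitals. They were read from the GENCODE M21 transcripts (GRCm38, the same assembly as mm10).
Trbv29 (leading in ALK1, chr6:41271822-41271881, plus strand): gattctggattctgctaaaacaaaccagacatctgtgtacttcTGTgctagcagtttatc
Trbv3 (leading in ALK2, chr6:41048769-41048828, plus strand): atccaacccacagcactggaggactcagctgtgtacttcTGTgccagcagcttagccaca
Trbv31 (leading in ALK3, chr6:41557691-41557750, minus strand): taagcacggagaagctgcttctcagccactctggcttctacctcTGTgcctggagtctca
Trbv13-2 (leading in every thymus library, chr6:41121773-41121832, plus strand): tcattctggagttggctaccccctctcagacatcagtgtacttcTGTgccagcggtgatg
Trbv15 (ALK3, chr6:41141599-41141658, plus strand): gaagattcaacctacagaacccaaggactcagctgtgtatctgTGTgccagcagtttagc
Trbv31 was the only one of the 35 Trbv genes on the minus strand and the only one beyond Trbc2.

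The J segments are given whole, with the codons of the phenylalanine-glycine motif that closes the loop in capitals.
Trbj2-1 (ALK1, chr6:41542754-41542803): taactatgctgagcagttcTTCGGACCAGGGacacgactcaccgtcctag
Trbj2-7 (ALK2, chr6:41543810-41543856): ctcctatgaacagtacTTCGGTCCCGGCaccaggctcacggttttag
Trbj1-5 (ALK2, chr6:41535084-41535133): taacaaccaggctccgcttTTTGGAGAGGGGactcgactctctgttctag
Trbj2-2 (ALK3, chr6:41542957-41543007): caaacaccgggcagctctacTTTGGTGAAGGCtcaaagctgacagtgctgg
Trbj1-6 (ALK3, chr6:41535554-41535606): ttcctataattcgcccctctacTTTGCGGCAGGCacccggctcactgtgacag
Trbj2-4 (ALK3, chr6:41543362-41543410): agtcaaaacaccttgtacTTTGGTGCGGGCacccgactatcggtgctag
All lie on the plus strand. The motif with glycine at its second codon was found in 11 of the 14 Trbj segments. Trbj1-6, which has an alanine codon there, was read in thymus and tumors, and the other 2 without it, Trbj1-7 and Trbj2-6, had no read in any library. These J segments span only 46 to 54 bases and the reads 50, so a read that crosses a V-J or J-C junction may go uncounted, and J reads are a small sample of the transcripts.

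Between 12473857 and 18864327 reads fell on genes per library, and the members took 0.0487% to 0.490% of them. Levels are counts scaled to the library total with TMM factors (CPM). Dnmt1 was at 400 to 487 CPM in Ctrl, 206 to 243 in KO, 378 to 787 in ALK and 205 to 244 in ALKKO, and reads on mouse Alk were at 0.431 CPM or less without the transgene and at 34.8 to 54.9 with it, as the labels say. KO2 stood apart. Its summed level over 15 T-lineage markers was 4848 CPM against 9310 to 13488 in the other thymus libraries, its B cell list reached 6029 CPM against 961 to 2720, and 13 of the 14 B cell and plasma cell markers were highest in it. In the ALK tumors the T-lineage list summed to 3663, 4058 and 4655 CPM, the thymic epithelium list to 67.5 to 176 CPM (1113 to 1930 in the thymus libraries other than KO2), and the stroma and endothelium list to 1166 to 2529 CPM (290 to 698 in those). Of the markers, Rag1 and Itgam were listed at 0 in all libraries. The part of other cells in the receptor levels was not tested. In whole tissue, fewer T cells and less receptor RNA per cell cannot be told apart.

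Silence of a segment has to be read with its sequence. Among the 77 members without a read, 10 are shorter than 50 bases, and 42 of the other 67 hold no 50-base window that is unique among transcripts, so uniquely aligned reads could not be assigned to them. Of the 191 members with reads, 6 were Trbj segments too short for such a window, and 1 of the other 185 had none that was unique. Most of this concerns Trav, where the locus carries near-identical duplicated blocks: 52 of 128 Trav genes had no read, and 41 of those 52 had no unique window. The Trbd and Trdd segments, of 11 to 16 bases, had no read in any library.

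The constant genes gave the level of each chain (plot of constant genes by library). Trac, the constant gene of the alpha chain, was close to lost in ALK1 and ALK2 and present in ALK3. Trbc2 was lower in all 3 tumors than in every Ctrl and ALKKO library, though KO2 lay below ALK2 and ALK3. The gamma constant genes were lower in every tumor than in every thymus. Tcrg-C1 had 1 read or none in each tumor, while ALK1 kept 4.63 CPM of Tcrg-C2 and 1.88 CPM of Tcrg-C4. No constant gene passed the edgeR test between Ctrl, KO and ALKKO thymi, and KO2 was the lowest KO library for each of them.

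Trac was at 515, 474.1 and 375 CPM in Ctrl, at 467, 284 and 407 in KO, at 5.84, 6.53 and 298 in ALK and at 455, 377 and 422 in ALKKO. The ALK libraries all lay below the Ctrl libraries, but ALK3 was above KO2 and far above the other tumors. The log2 fold change against Ctrl was -2.14 ± 1.15 (SE, n = 3 per group) and did not pass the test (edgeR quasi-likelihood, adjusted p = 0.182). Without ALK3 it was -6.21 with an adjusted p of 1.0e-05.

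Trbc1 and Trbc2 encode near-identical beta constant regions, and 59.5% and 56.0% of their 50-base windows were unique, so the split of their reads rests on the remainder of each gene. Trbc1 was at 1079, 1117 and 787 CPM in Ctrl, at 728, 358 and 860 in KO, at 1.68, 837 and 229 in ALK and at 976, 817 and 983 in ALKKO. ALK2 lay inside the Ctrl range and ALK1 far below every other library, and the log2 fold change of -1.48 ± 1.18 did not pass the test (edgeR adjusted p = 0.367). Trbc2 was at 1978, 2092 and 1387 CPM in Ctrl, at 1456, 582 and 1474 in KO, at 429, 741 and 642 in ALK and at 1352, 1297 and 1304 in ALKKO. Trbc2 fell in ALK by 1.59 ± 0.343 on the log2 scale against Ctrl (edgeR adjusted p = 0.00740) without overlap of the groups, and by 1.12 against ALKKO (adjusted p = 0.0320). The second of these calls was lost when ALK1, ALK3 or any ALKKO library was left out, at adjusted p up to 0.0827, and the first under none of the alternatives.

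Trdc, the delta constant gene, was at 154, 204 and 125 CPM in Ctrl, at 177, 78.6 and 166 in KO, at 7.98, 10.6 and 203 in ALK and at 139, 146 and 188 in ALKKO. ALK3 lay within the Ctrl range while ALK1 and ALK2 were below all other libraries, the same libraries as for Trac. The log2 fold change of -1.12 ± 0.959 did not pass the test (edgeR adjusted p = 0.402), and it was -4.13 without ALK3 (adjusted p = 0.000298). Exons of Trdc overlap those of Trdv5 on the opposite strand, and the counting strand is not given in the sources used here, so both counts are uncertain.

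The gamma constant gene Tcrg-C1 was at 32.6, 43.6 and 28.8 CPM in Ctrl, at 46.2, 9.80 and 29.4 in KO and at 29.1, 29.7 and 36.0 in ALKKO, and the 3 tumors had 1, 0 and 1 read. It was at least 151-fold lower in ALK than in Ctrl when each tumor is set to a floor of 3 counts (edgeR adjusted p = 8.1e-05). Tcrg-C2 was at 48.4, 58.8 and 42.9 CPM in Ctrl and at 4.63, 0.174 and 0.156 in ALK. Its log2 fold change was -4.87 ± 0.978 (edgeR adjusted p = 0.00533). Tcrg-C4 went from 32.5, 34.9 and 20.0 CPM to 1.88, 0.174 and 0.234, a log2 fold change of -5.19 ± 0.721 (adjusted p = 0.00109). Tcrg-C3 had 23 reads or fewer in every library and did not enter the edgeR test. ALK1 was the tumor with most Tcrg-C2 and Tcrg-C4 reads, 69 and 28, and the groups did not overlap for any of the 3 tested genes. Tests of 1 gene over 3 against 3 libraries cannot give a two-sided exact permutation p under 0.1, and Trac, Trbc2 and the 4 gamma constant genes reached that value in ALK against Ctrl. Among the thymi, Trbc2 reached it in ALKKO against Ctrl, with a mean of 1318 against 1819 CPM and every ALKKO library below every Ctrl library. Tcrg-C3 reached it in KO and in ALKKO against Ctrl, with means of 0.395 and 0.309 against 0.907 CPM. No other constant gene reached it in any comparison among the thymi. A permutation p of 0.1 says only that the 2 groups did not overlap. It was not adjusted for the number of genes and comparisons, so no change is read from it.

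**Figure D1:**
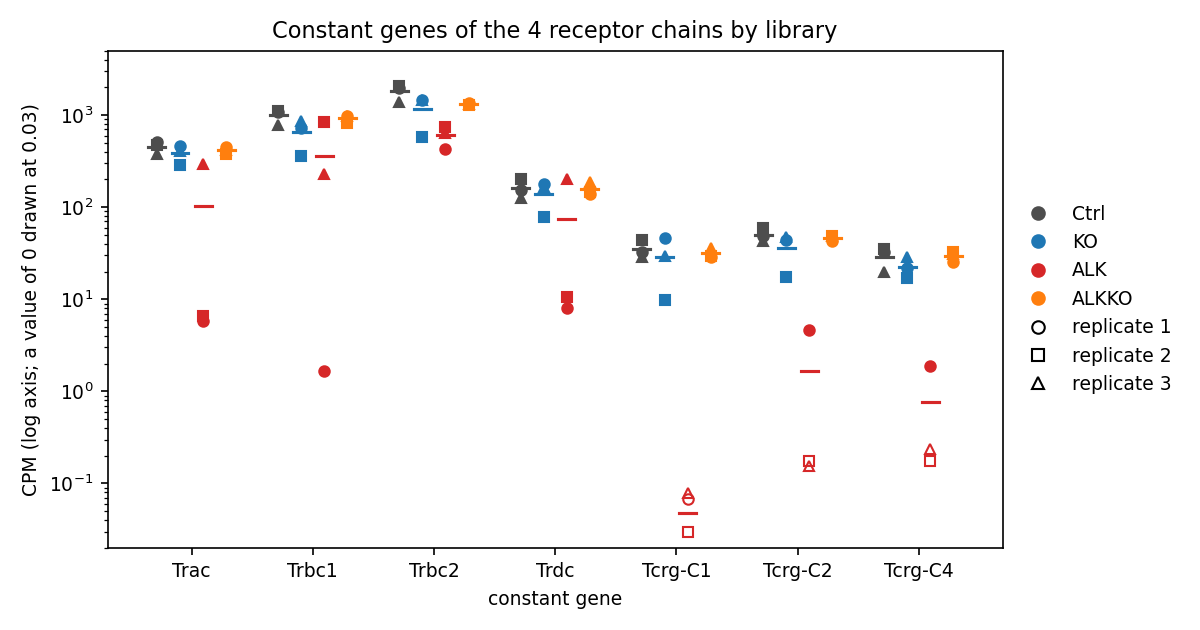
Constant genes in each library, in CPM on a log axis. Each point is a library, colored by group and shaped by replicate number, with a line at the group mean, open symbols mark 3 reads or fewer and a library with no read is drawn at 0.03. Tcrg-C1 had 1 read or none in each ALK library, and for Trac and Trdc ALK3 lies far above ALK1 and ALK2.

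Use of the V genes of the beta chain separated the tumors from all thymi (plot of Trbv shares). Every thymus library had a broad and nearly identical Trbv profile led by Trbv13-2, whereas each tumor was led by a different gene. Trbv29 led in ALK1, Trbv3 in ALK2 and Trbv31 in ALK3. Shares are of reads, and the leading gene was the same per kb of exon in all 12 libraries.

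In ALK1, 326 of 392 Trbv reads fell on Trbv29, which is 83.2% (95% exact binomial interval 79.1 to 86.7). Intervals here and below cover counting error only, since the reads have no molecular identifiers. Trbv29 had 441, 660 and 471 reads in Ctrl, 501, 117 and 401 in KO, 0 in ALK2, 2 in ALK3 and 356, 464 and 393 in ALKKO. The reads that ALK1 kept on it were thus of the same order as those of a thymus, and its share stood out because the remaining Trbv genes were near silent. Trbv13-2 followed with 20 reads and Trbv3 with 15.

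In ALK2, 4926 of 5351 Trbv reads fell on Trbv3 (92.1%, 91.3 to 92.8) and 385 on Trbv2, which left 40 reads for all others. Trbv3 had 809, 826 and 724 reads in Ctrl, 693, 197 and 614 in KO, 15 in ALK1, 5 in ALK3 and 605, 625 and 625 in ALKKO, so ALK2 was above every other library. Its log2 fold change between the groups, 1.77 ± 1.60 (edgeR adjusted p = 0.427), averages over tumors that hardly used it. Without ALK2 it was -5.89, with an adjusted p of 0.000322.

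In ALK3 the reads were divided among 3 genes. Trbv31 took 2041 of 4478 reads (45.6%, 44.1 to 47.1), Trbv13-2 took 1173 and Trbv15 took 1054. Trbv12-2 had 173, and of the remaining Trbv genes Trbv14 alone, with 10, had more than 5 reads. Trbv31 had 600, 748 and 566 reads in Ctrl, 582, 172 and 419 in KO, 3 in ALK1, 11 in ALK2 and 443, 580 and 517 in ALKKO. ALK3 was thus the only library with more than 748 reads on it.

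In the thymi, Trbv13-2 took 15.9% to 19.7% of Trbv reads in the 9 libraries, with 2027, 2447 and 2099 reads in Ctrl, 2303, 477 and 1758 in KO and 1566, 1676 and 1625 in ALKKO. The mean share of the leading gene was 17.5% ± 0.791 in Ctrl, 18.2% ± 2.0 in KO, 17.8% ± 0.959 in ALKKO and 73.6% ± 24.7 in ALK (SD, n = 3 each). After Trbv13-2 the highest mean levels in Ctrl were of Trbv13-1 (54.7 CPM ± 8.09), Trbv2 (48.2 ± 4.97), Trbv15 (48.1 ± 6.36) and Trbv16 (45.5 ± 5.09). Per kb of exon, Trbv15 lay above Trbv2, at 130 against 86.1 CPM. Trbv13-1 had 0, 1 and 5 reads in the tumors and Trbv16 had 5, 3 and 2.

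**Figure D2:**
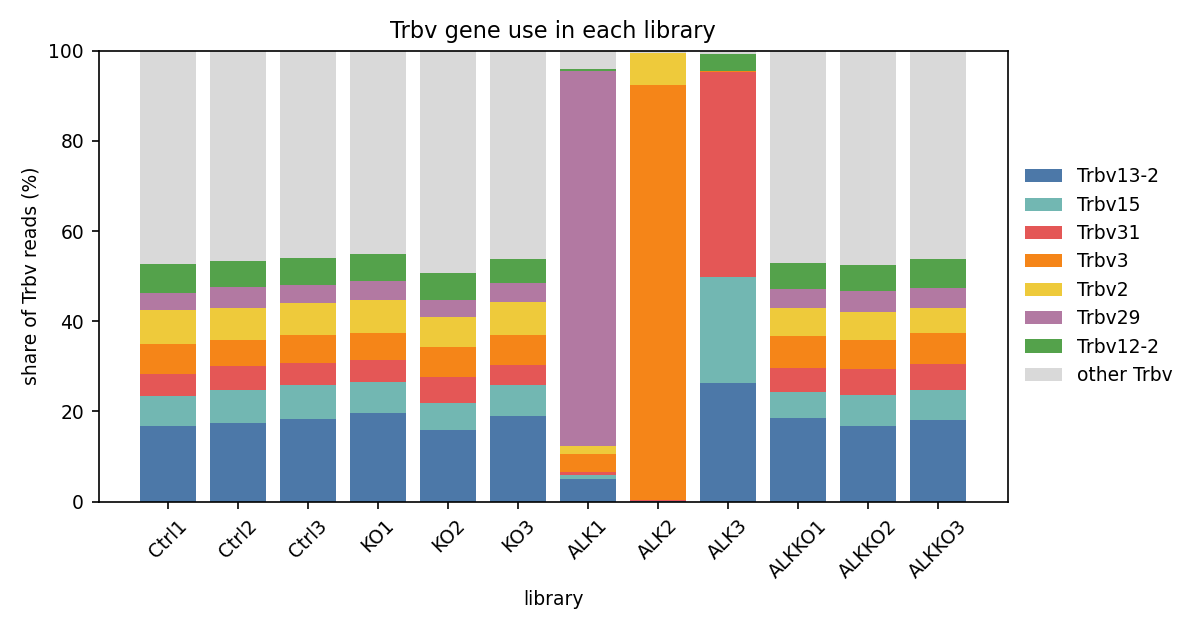
Share of Trbv reads taken by each gene in each library, as stacked bars that sum to 100%, with 7 genes colored and the remaining ones in gray. The thymus libraries share 1 profile led by Trbv13-2, while Trbv29 fills 83.2% of ALK1, Trbv3 fills 92.1% of ALK2 and Trbv31 fills 45.6% of ALK3.

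Evenness was expressed as an effective number of genes, the inverse of the probability that a pair of reads comes from the same gene. For Trbv it was 13.1, 12.9 and 12.6 in Ctrl, 12.1, 13.6 and 12.4 in KO and 12.5, 13.1 and 12.7 in ALKKO. The tumors had 1.44, 1.17 and 3.0. KO2, with 2996 Trbv reads against 9304 and 11674 in the other KO libraries, was as even as the rest. At an equal depth of 392 reads, 19.4 to 20.2 Trbv genes would be seen in a thymus library and 15, 4.09 and 6.69 in ALK1, ALK2 and ALK3, so ALK1 combined a dominant gene with a thin background of many others. To turn a library's Trbv profile into the mean Ctrl profile, 2.68% to 6.85% of the reads of a thymus library would have to move to another gene, against 79.0%, 85.8% and 65.6% in the tumors. No test was made on these scores.

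J segments and constant genes of the beta chain gave a second view of the same transcripts (heat map of Trbj shares). In the thymi, Trbj2-7 or Trbj2-1 led with 13.2% to 17.7% of Trbj reads (the same segment per kb in 11 of all 12 libraries), with 9.08 to 10.1 effective segments. Each tumor again had its own segments, and the effective numbers were 3.26, 1.84 and 2.38.

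ALK1 had 40 Trbj reads, of which 19 fell on Trbj2-1, 10 on Trbj2-7 and 7 on Trbj2-5. None fell on a Trbj1 segment, 0 of 40 reads, which allows a share of up to 7.5% when 3 counts are taken as the limit of a count of 0. The same library had 25 Trbc1 reads beside 6391 Trbc2 reads, so that Trbc1 took 0.390% (0.252 to 0.575) of the beta constant reads against 33.3% to 43.0% in the thymi. J and C use in ALK1 thus both lay in the second D-J-C cluster.

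ALK2 used both clusters. Trbj2-7 took 255 of 379 Trbj reads (67.3%, 62.3 to 72), Trbj1-5 took 114 and Trbj1-6 took 9, and Trbc1 took 53.0% (52.3 to 53.8) of the constant reads, above all other libraries. Trbj1-5 is otherwise rarely read, with 14, 4 and 12 reads in Ctrl, 7, 0 and 7 in KO, 0 in ALK1 and ALK3 and 7, 12 and 11 in ALKKO. Trbj2-7 had 118, 195 and 125 reads in Ctrl, 151, 31 and 115 in KO, 10 in ALK1, 6 in ALK3 and 102, 124 and 106 in ALKKO.

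ALK3 was led by Trbj2-2 with 256 reads (58.7% of Trbj reads, 53.9 to 63.4), followed by Trbj1-6 with 90 and Trbj2-4 with 80. Trbj2-2 had 69, 89 and 63 reads in Ctrl, 60, 18 and 57 in KO, 2 in ALK1, 0 in ALK2 and 62, 67 and 63 in ALKKO. As with the V genes, 3 segments held nearly all reads in this tumor, and Trbc1 took 26.3% (25.5 to 27.1) of the constant reads. Trbj2-1, which led in 3 thymi, had 153, 156 and 110 reads in Ctrl, 103, 30 and 95 in KO, 0 in ALK2, 1 in ALK3 and 105, 135 and 96 in ALKKO. The pairing of a V with a J within a molecule cannot be read from gene counts.

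Trbc1 took 35.3%, 34.8% and 36.2% of the beta constant reads in Ctrl, 33.3%, 38.1% and 36.8% in KO and 41.9%, 38.7% and 43.0% in ALKKO. The ALKKO libraries lay above all Ctrl and KO libraries. The share was not tested, and Trbc1 and Trbc2 themselves did not pass the test in ALKKO against Ctrl (log2 fold changes of -0.10 ± 1.15 and -0.46 ± 0.335, edgeR adjusted p of 0.9998 for both). Trbj1 segments took 40.3% to 42.6% of Trbj reads in Ctrl, 38.5% to 42.7% in KO and 42.5% to 46.8% in ALKKO, ranges that touch or overlap within the counting error.

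V reads per 100 constant reads set the counted V reads beside the constant signal of a chain. V and constant genes are counted on separate reads, so the ratio does not show what part of the constant RNA was joined to a V gene. For the beta chain this was 21.0, 23.5 and 28.4 in Ctrl, 28.3, 27.4 and 26.8 in KO and 21.8, 28.3 and 25.2 in ALKKO. ALK1 had 6.11, ALK2 29.5 and ALK3 40.1, so ALK1 was the lowest and ALK3 the highest of all libraries.

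**Figure D3:**
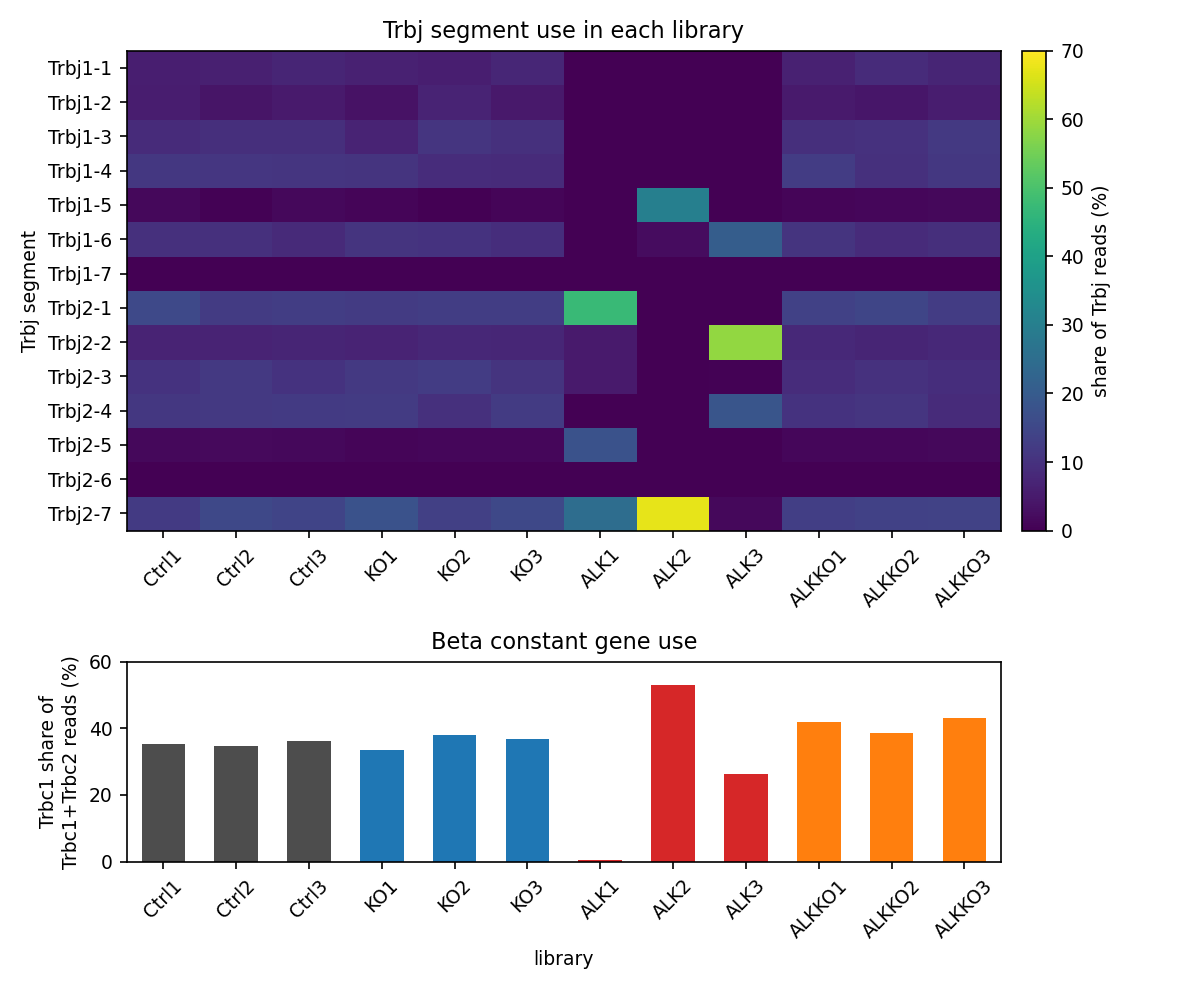
Above, share of Trbj reads on each of the 14 segments in each library (color scale in percent). Below, the Trbc1 share of beta constant reads in percent, as bars from 0, 1 per library. Trbj2-1, Trbj2-7 and Trbj2-2 lead in ALK1, ALK2 and ALK3, and the Trbc1 share was 0.390% in ALK1 and 33.3% to 43.0% in the thymi.

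The alpha locus holds 128 Trav and 60 Traj segments upstream of Trac. In the thymi the profile was broad, with 34.0 to 44.7 effective Trav and 26.2 to 34.9 effective Traj segments. ALK1 and ALK2 had almost no Traj reads, 4 and 3, against 136 to 345 in the thymi and 166 in ALK3. Trav reads numbered 15, 84 and 354 in ALK1, ALK2 and ALK3 and 446 to 1225 in the thymi.

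In ALK3 the Traj reads gathered in 1 stretch (plot of Traj use along the array). The 7 segments from Traj43 to Traj37, which span 6.84 kb of chromosome 14 from position 54174742 to 54181577, held 103 of 166 reads (62.0%, 54.2 to 69.5) against 8.55% to 16.1% in the thymi. This stretch was chosen after its values were seen. Traj42 led with 27 reads there, against 11, 5 and 6 in Ctrl, 12, 4 and 1 in KO, 0 in ALK1 and ALK2 and 3, 4 and 4 in ALKKO. Traj43 had 25 and Traj39 had 22. The 20 segments nearest to Trac held 8.43% (4.69 to 13.7) of the ALK3 reads and 31.0% to 46.5% of those in the thymi. The most used V genes of ALK3 lay in 2 places of the Trav array: 141 of 354 reads fell on the 5 genes from Trav4-2 to Trav7-4 and 95 on the 3 from Trav8d-1 to Trav6d-5, both stretches also chosen after seeing the values. Only 12.8% (Trav6-3) to 72.2% (Trav6-4) of the 50-base windows of the genes in these stretches were unique. The assignment of their reads between near-identical copies is therefore uncertain. Trav8d-1 led with 65 reads and had 29, 36 and 5 in Ctrl, 34, 12 and 11 in KO, 0 in the other tumors and 30, 27 and 21 in ALKKO. ALK3 was thus narrower than the thymi in Trav and Traj, with effective numbers of 10.9 and 11.7. The families differ in their number of segments, so these are not compared with its effective number for Trbv.

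ALK2 had Trav reads without a matching amount of Trac. It gave 112 Trav reads per 100 Trac reads, compared with 10.5 to 14.9 in the thymi, 17.2 in ALK1 and 9.28 in ALK3. Of its 84 Trav reads, 53 fell on the 4 neighboring genes Trav3-4, Trav12-4, Trav17 and Trav18 (63.1%, 51.9 to 73.4), a stretch of 54.9 kb that held 1.62% to 6.68% in the thymi and was chosen after its values were seen. Trav18 led with 23 reads and had 6, 0 and 4 in Ctrl, 1, 0 and 0 in KO, 0 in ALK1 and ALK3 and 1, 0 and 0 in ALKKO. In ALK1 the leading Trav gene, Trav14d-3-dv8, had 4 reads, and no profile can be drawn from 15.

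**Figure D4:**
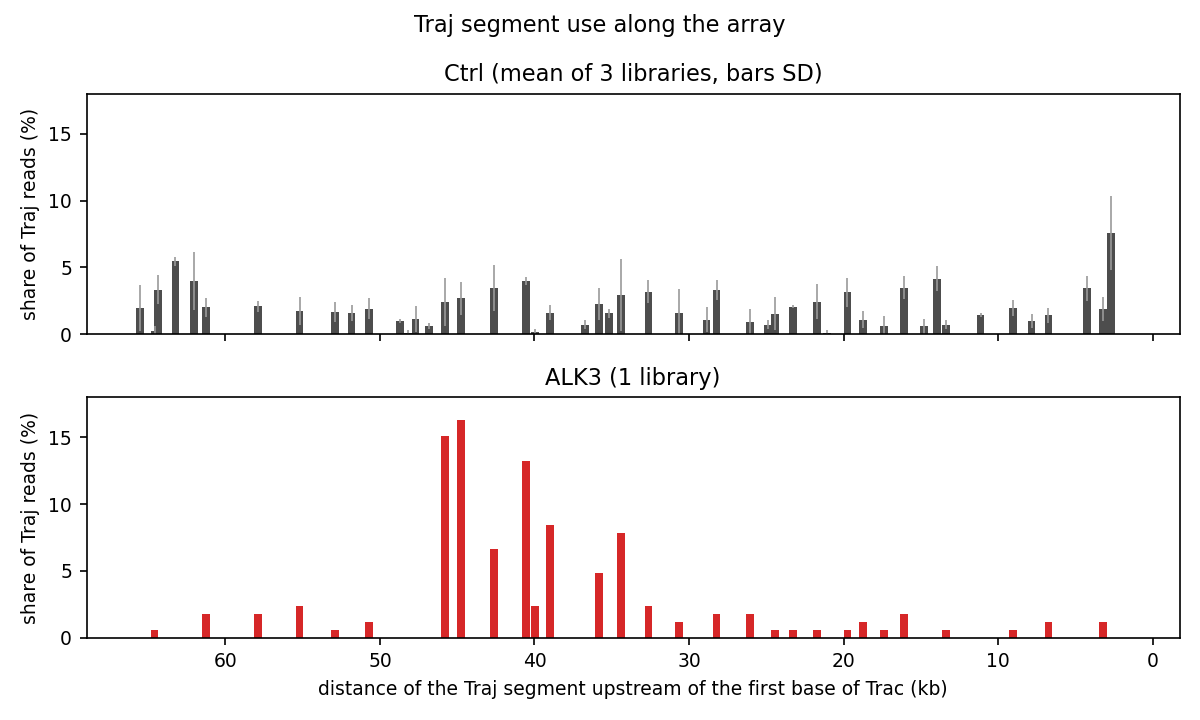
Share of Traj reads on each segment against its distance in kb upstream of Trac, for Ctrl (bars are the mean of 3 libraries, lines the SD) and for ALK3 (1 library). Reads spread over the whole array in Ctrl, and in ALK3 7 segments hold 62.0% of them.

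Among thymi, Trav3-3 led in 6 libraries and Trav21-dv12 in 3, each with under 10% of Trav reads (5.75% to 9.04%). Trav21-dv12 had 59, 62 and 71 reads in Ctrl, 55, 16 and 51 in KO and 37, 44 and 38 in ALKKO, and Trav3-3 had 57, 68 and 15, then 90, 31 and 41, then 89, 62 and 68. The next in mean Ctrl level were Trav15-1-dv6-1 (2.15 CPM ± 0.871), Trav14-1 (2.03 ± 0.731) and Trav15-2-dv6-2 (1.48 ± 0.614). Traj2, the second segment from the Trac end of the array, led in 7 thymi with 29, 21 and 13 reads in Ctrl, 38, 8 and 16 in KO and 34, 34 and 34 in ALKKO, and it had none in the tumors. Traj57 led in Ctrl3 with 16 reads (4 to 15 elsewhere in the thymi) and Traj31 in KO2 with 11 (3 to 11), both within the counting error of other segments. Traj58, Traj12 and Traj39 completed the 5 highest Traj means in Ctrl, at 0.801, 0.606 and 0.587 CPM.

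Some Trav genes differed between thymi within a group. Of the Trav genes with at least 15 reads over the 9 thymi, 6 had at least 90% of them in Ctrl1, Ctrl3 and KO3, a criterion set after seeing the values. Trav16 had 8, 0 and 20 reads in Ctrl, 1, 0 and 11 in KO and 0 in each ALKKO library. Trav8-2 had 5, 0 and 14 in Ctrl, 0, 0 and 2 in KO and none in ALKKO. The 6 genes together (with Trav7n-4, Trav8-1, Trav7-6 and Trav13-4-dv7) had 43, 1 and 70 reads in Ctrl, 2, 0 and 32 in KO and 1, 1 and 0 in ALKKO, at Trav totals of 446 or more. The methods give a mixed strain background for the mice, and the labels do not give it per mouse.

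The V and J segments of the gamma and delta chains had few reads in every library. Delta V reads came to 51 to 311 and gamma V reads to 103 to 354 in the thymi, while the 3 tumors together had 4 delta and 19 gamma V reads. Trdv5, Trdv1, Trdv4 and Trdv2-2 and Trgv2, Tcrg-V4, Tcrg-V1 and Tcrg-V6 made up most of them (plot of gamma and delta V genes). In the thymi Trdv5 led among delta V genes in 8 of 9 libraries, and Trgv2 led among gamma V genes in all 9, with 42.1% to 60% of their reads. Per kb of exon, Trdv1 led instead of Trdv5 in Ctrl1, Ctrl2, ALKKO1 and ALKKO2. Trav genes with dv in their symbol were counted with Trav and not with the delta V genes.

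Trgv2 had 93, 160 and 129 reads in Ctrl, 149, 56 and 99 in KO, 12, 0 and 1 in ALK and 105, 170 and 115 in ALKKO. The tumors lay below all thymi, with ALK1 the highest of them. The log2 fold change of Trgv2 in ALK against Ctrl was -4.42 ± 0.881 (edgeR adjusted p = 0.00513), and -7.13 without ALK1 (adjusted p = 0.000257). The gamma J segments were thinly read, with 7 to 44 reads in a thymus and 1 in all tumors. Trgj2 led them with 11, 18 and 19 reads in Ctrl, 10, 2 and 18 in KO, 1, 0 and 0 in ALK and 10, 26 and 11 in ALKKO, followed by Trgj4 with 55 and Trgj1 with 30 reads over all libraries.

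KO1 stood apart for Tcrg-V6 and Trdv4, and at few reads for Tcrg-V5, which had 8 there and 0 or 1 in each other library. Tcrg-V6 and Trdv4 are the V genes known to be paired in the interleukin-17-producing gamma delta T cells that arise in the fetal thymus, and their ends are shown with the cysteine codon in capitals.
Tcrg-V6 (chr13:19190870-19190929, plus strand): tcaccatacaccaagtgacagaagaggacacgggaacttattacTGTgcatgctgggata
Trdv4 (chr14:54075456-54075515, plus strand): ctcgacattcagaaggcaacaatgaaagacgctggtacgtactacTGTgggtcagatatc
Tcrg-V6 had 84 reads in KO1, against 7, 1 and 5 in Ctrl, 4 and 14 in KO2 and KO3, none in ALK and 6, 10 and 6 in ALKKO. Trdv4 had 166 reads in KO1, against 19, 1 and 10 in Ctrl, 7 and 21 in KO2 and KO3, 0, 0 and 1 in ALK and 17, 23 and 9 in ALKKO. Both genes were far higher in this 1 mouse than in every other library, and KO3 had the next most Tcrg-V6 reads. Trdv4 had a log2 fold change of 2.75 ± 1.09 in KO against Ctrl, which did not pass the test (edgeR adjusted p = 0.864) and was 0.91 without KO1. Cd163l1, a scavenger receptor gene marking such cells, was at 103 CPM in KO1 and 0.174 to 32.5 elsewhere, and Il23r was at 6.99 in KO1 and at 5.20 or less elsewhere. Of the 6 gamma delta markers these 2 were highest in KO1, Blk was highest in KO2, and Il17a had at most 0.0539 CPM anywhere. Their part in the V gene reads was not tested.

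Tcrg-V4 had 69, 84 and 69 reads in Ctrl, 80, 21 and 41 in KO, 0, 1 and 0 in ALK and 41, 75 and 55 in ALKKO, and Tcrg-V1 had 23, 34 and 15, then 31, 14 and 33, then 4, 0 and 0, then 20, 40 and 20. Trdv5 had 57, 82 and 58 reads in Ctrl, 81, 27 and 60 in KO, none in ALK and 46, 41 and 73 in ALKKO, and Trdv1 had 47, 66 and 37, then 37, 12 and 44, then 0, 1 and 0, then 44, 36 and 46. ALK3, with 2601 Trdc reads, had 1 delta V read and 23 reads of Trdj1, the J segment upstream of Trdc. Hardly any delta V reads thus stood beside its Trdc reads. Trdj1 had 47, 60 and 59 reads in Ctrl, 61, 18 and 78 in KO, 2 and 2 in ALK1 and ALK2 and 46, 56 and 62 in ALKKO.

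**Figure D5:**
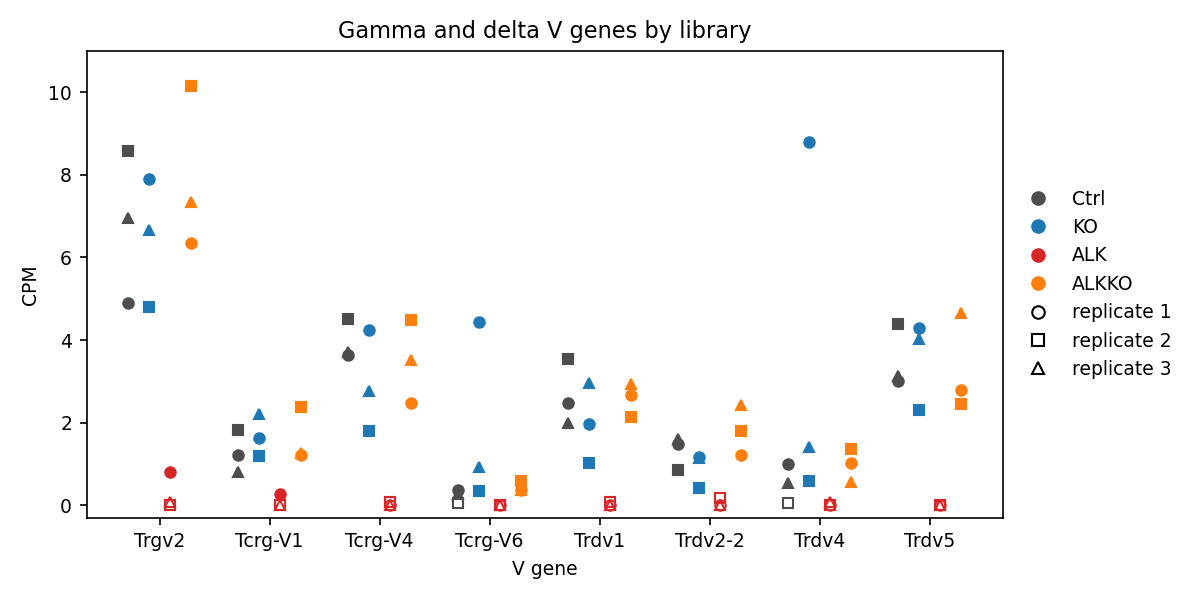
CPM of the gamma and delta V genes with most reads, 1 point per library, colored by group and shaped by replicate number. Open symbols mark 3 reads or fewer. Tcrg-V6 and Trdv4 are highest in KO1, and the ALK libraries lie near or at 0 for all 8 genes, the highest being ALK1 for Trgv2 with 12 reads.

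Over all segments, ALK against Ctrl called 61 of the 94 tested members lower and none higher (adjusted p under 0.05 and over 2-fold, edgeR quasi-likelihood), where 20.4% of the 16052 genes tested were called in either direction, 12% lower and 8.41% higher. The 46 tested members with 3 reads or fewer in each tumor entered the test only through the thymi, where they were read, so the count describes which segments the tumors lack and is no independent result. The median log2 fold change was -3.68 over the tested members and 0.05 over all genes. By family, 26 of 40 tested Trav, 5 of 6 Traj, 13 of 20 Trbv, 6 of 12 Trbj, 3 of 4 Trdv, 3 of 3 gamma V, 1 of 1 gamma J, 3 of 3 Tcrg-C and 1 of 2 Trbc genes were lower. The largest fitted falls were of Trbj1-4, Tcrg-C1, Trbv23, Trbv17 and Trbv19.

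Against the floor of 3 counts per library, Trbv19 was at least 173-fold lower and had 716, 834 and 705 reads in Ctrl and 2, 1 and 0 in ALK. Trbv17 was at least 77.9-fold lower and went from 17.9, 20.8 and 15.5 CPM to 1, 0 and 0 reads. Trbj1-4 was at least 26.6-fold lower, from 113, 140 and 94 reads to none, and Trbv23 at least 19.5-fold lower, from 96, 105 and 54 reads to none. The adjusted p-values were 1.1e-05, 3.4e-05, 0.000286 and 0.00183 (edgeR). Each of the 4 segments had 2 reads or fewer in every tumor. The called list depends on which segments the 3 tumors happened to retain: without ALK3, 89 of 102 tested members were called.

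ALK against ALKKO gave a similar count, 62 of 94 lower and none higher, with 19.6% of all genes called, 12.6% lower and 7.03% higher. Both comparisons share the ALK libraries. The largest fitted falls were of Trbj1-4, Tcrg-C1, Trbj1-1, Trbv19 and Trbv17. Trbj1-1 was at least 16.3-fold lower than in ALKKO, where it had 51, 78 and 57 reads, and it had none in ALK.

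Among the thymi no member passed the test. In KO against Ctrl, ALKKO against Ctrl and ALKKO against KO, 0 of 94 tested members were called by edgeR or by DESeq2, where 0.0187%, 0.181% and 0.00623% of all genes were called by edgeR. Among all 16052 genes tested, 886, 510 and 432 had an unadjusted edgeR p under 0.05. Of the 94 tested members, 2, 0 and 0 did. In KO against Ctrl these were Trdv4 and Trbv16, a V gene at 43.0, 51.4 and 42.2 CPM in Ctrl and at 35.1, 17.1 and 36.6 in KO. Trbv16 had a log2 fold change of -0.62 ± 0.273 (edgeR adjusted p = 0.864) and of -0.34 without KO2. For Trac the log2 fold change was -0.24 ± 1.10 in KO and -0.12 ± 1.10 in ALKKO against Ctrl, so 2 standard errors on either side span more than 2 log2 units. The spread was estimated over all 12 libraries, tumors included.

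The NPM-ALK effect without Dnmt1 deletion (ALK against Ctrl) was set against that with it (ALKKO against KO) for the constant genes. The difference passed the test for 4 of 7 tested constant genes, all more negative without the deletion, where 10.3% of all genes differed at an adjusted p under 0.05. These were Tcrg-C1 (-9.37 ± 0.891 on the log2 scale, edgeR adjusted p = 0.000493), Tcrg-C4 (-5.58 ± 0.909, adjusted p = 0.00720), Tcrg-C2 (-5.23 ± 1.24, adjusted p = 0.0284) and Trbc2 (-1.76 ± 0.477, adjusted p = 0.0433). Tcrg-C1 had 1, 0 and 1 read in ALK, under the floor of 3 counts, and entered the test only through the thymi. The fitted size of its difference is therefore uncertain. The calls of Tcrg-C2 and Trbc2 depended on which libraries were included: that of Tcrg-C2 was lost when any Ctrl or ALKKO library or KO3 was left out (adjusted p up to 0.0703), and that of Trbc2 when any of these, ALK1 or ALK2 was (up to 0.103). Without ALK3, Trac and Trdc passed as well (adjusted p of 2.7e-05 and 0.00127). Tumor tissue stands on 1 side of this contrast only.

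Genes that work with the receptor moved unevenly. Of 25 partner genes (CD3 and pre-TCR chains, recombination, signaling and coreceptors), 24 were tested, 7 fell and 1 rose in ALK against Ctrl, where 12% of all genes tested were called lower and 8.41% higher, and the median log2 fold change was -0.58 against 0.05 over all genes. All 3 coreceptor genes were among those that fell, with Cd247, Cd3g, Rag2 and Lcp2.

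Cd247, the zeta chain, was at 688, 677 and 559 CPM in Ctrl and 176, 190 and 169 in ALK, a log2 fold change of -1.85 ± 0.267 (edgeR adjusted p = 0.00124). Cd3g was at 561, 568 and 506 CPM against 265, 34.7 and 138 (-1.90 ± 0.569, adjusted p = 0.0299), a call lost when ALK3 or any Ctrl library was left out, with no low-count filter and with the compared groups alone, at adjusted p up to 0.0812. Rag2 was at 349, 422 and 334 CPM against 82.0, 26.4 and 11.2 (-3.20 ± 0.685, adjusted p = 0.00713). For each of these the groups did not overlap.

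Cd3d was at 467, 468 and 392 CPM in Ctrl and 212, 2.26 and 13.5 in ALK, and did not pass the test (edgeR adjusted p = 0.108). Without ALK1 its log2 fold change was -5.80, with an adjusted p of 0.000478. Cd3e, the companion chain, stayed at 308, 398 and 323 CPM in ALK against 587, 492 and 416 in Ctrl (log2 fold change -0.54, adjusted p = 0.168). Ptcra was at 46.3, 47.4 and 49.0 CPM in Ctrl and 424, 142 and 32.5 in ALK, high in the tumors with little Trac and not in ALK3, and its log2 fold change of 2.07 did not pass the test (adjusted p = 0.0595). Without ALK3 it was 2.56 with an adjusted p of 0.00815, and the adjusted p was 0.0460 without KO2 and 0.0152 with DESeq2. Against ALKKO, where it was at 26.8, 45.4 and 46.8 CPM, Ptcra was called higher (log2 fold change 2.33 ± 0.755, edgeR adjusted p = 0.0421), a call lost under most alternatives, among them any Ctrl or ALKKO library, KO1, KO3, ALK1 or ALK2 left out (adjusted p up to 0.176, at a log2 fold change of 1.16 without ALK1). Dntt, which adds bases at the joints, was at 1839, 2059 and 1826 CPM in Ctrl and 1603, 2935 and 1052 in ALK (log2 fold change -0.03, adjusted p = 0.967). Rag1 was listed at 0 in every library and is not read as absent, since Rag2 was present.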

How the data were processed

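RNA was taken from homogenised thymus or tumor and sequenced as stranded poly(A) libraries with single 50-base reads. The deposited values are counts per gene: per the labels and methods, reads were trimmed with Trim Galore, aligned by STAR to mm10 and counted by HTSeq when uniquely aligned. Versions, annotation release and counting strand are not given in the sources used here, apart from Picard 2.19.2 in the submitters' processing notes.

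Gene IDs were matched to GENCODE M21 symbols (50376 of 50600). Counts were tested in edgeR 4.0.16 (R 4.3.3) with TMM scaling, filterByExpr, robust glmQLFit and glmQLFTest, with 1 term per group over all 12 libraries and Benjamini-Hochberg adjustment over 16052 genes. Members and lists were chosen with earlier results of these data known. Named genes were the constant genes, each library's leading V and J genes, the 5 highest Trav, Trbv and Traj genes in Ctrl, the 5 largest called changes per comparison, the 3 most abundant gamma and delta segments per class and 8 partner genes, with exceptions marked. Shares carry exact Clopper-Pearson 95% intervals. No pair of libraries agreed within sampling noise. Libraries carry an age and a sex but no animal identifier. Within each group they differ in age or sex, so they came from different mice. The p-values measure the spread between these libraries, which holds differences between mice and technical ones. Rows that name no gene held 43.8% to 55.3% of each file and were left out. The test was checked on simulated counts. Alternatives were DESeq2 1.42.0, other scaling and filters, a replicate block, fits of the compared groups alone, no robust estimation and each library left out.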

Additional observations from a re-analysis of the deposited data

Results flagged for a closer look

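The NPM-ALK effect differed between mice with and without Dnmt1 deletion, by the test of the difference itself, for 4 constant genes. The difference on the log2 scale was -9.37 for Tcrg-C1, -5.58 for Tcrg-C4, -5.23 for Tcrg-C2 and -1.76 for Trbc2 (edgeR adjusted p = 0.000493, 0.00720, 0.0284 and 0.0433). Tcrg-C1 and Tcrg-C4 kept the call under every alternative that could be fitted. Tcrg-C1 had 1, 0 and 1 read in the tumors, under the floor of 3 counts, so the fitted size of its difference is uncertain. The call of Tcrg-C2 was lost with no low-count filter (adjusted p = 0.0554) and when any Ctrl or ALKKO library or KO3 was left out (adjusted p up to 0.0703). The call of Trbc2 was lost when any Ctrl or ALKKO library, KO3, ALK1 or ALK2 was left out (adjusted p up to 0.103). The ALK libraries were tumors and the other 9 were thymi, so the genotype and the tumor state cannot be told apart.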

How the results depend on the processing

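Of 210 recomputed main results, 195 were classed as unchanged. Fold changes had to keep their direction and their side of the threshold, and means had to stay within the spread. Counts of called genes were held only to a fixed ratio, which passed 42 and 89 called members against 61 in ALK against Ctrl. Counts that stayed at 0 passed as well. With at least 10 counts in every library, 4 members were left to test, and 1 was called lower in ALK against Ctrl, 1 in ALK against ALKKO and 1 for the difference of NPM-ALK effects, since segments silent in tumors were removed. Fits without a library tested other numbers of members. Without ALK3 there were 102, and 3748 and 3719 of 16571 genes were called in ALK against Ctrl and ALK against ALKKO. Leaving out a library gave 56 to 89 called members in ALK against Ctrl and 58 to 85 in ALK against ALKKO, the highest without ALK3. It also gave 2 to 6 constant genes for the difference of NPM-ALK effects. It gave log2 fold changes against Ctrl of -6.21 to -1.58 for Trac, -3.13 to -0.89 for Trbc1, -1.79 to -1.39 for Trbc2 and -4.13 to -0.60 for Trdc. The replicate numbers do not pair the samples (correlations of -0.106 to 0.426 between same-numbered libraries). With the replicate block, 59 and 60 of 94 tested members were called in ALK against Ctrl and ALK against ALKKO. Among all 16052 genes, 2911 and 2778 were called. Trbc2 then lost its call in ALK against ALKKO (edgeR adjusted p = 0.0614) and for the difference of NPM-ALK effects (0.0779). In KO against Ctrl, ALKKO against Ctrl and ALKKO against KO, 0 members were called under every alternative. In ALK against Ctrl and ALK against ALKKO, DESeq2 called 66 and 65 of 94 tested members, where 3969 and 3843 of 16052 genes were called. With no filter 79 and 79 of 191 members were called, beside 3118 and 2971 of 28141 genes. Fits of the compared groups alone called 42 of 74 and 50 of 79, where 2586 of 15020 and 2049 of 14986 genes were called. Without ALK2, Trbj1-5 and Trbv3 turned to lower in ALK against Ctrl, and leaving out a library gave log2 fold changes of -6.14 to 3.21 and of -5.89 to 2.37. For Dntt they were -0.54 to 0.24, above 0 without Ctrl2, ALK1 or ALK3. The mean effective number of Trbv genes in Ctrl was 12.9, 11.9 per kb and 15.5 from the Shannon entropy, and the mean Trbc1 share in Ctrl was 35.4%, or 33.6% per kb. Without 1 tumor, the mean share of the leading Trbv gene in ALK was 64.4% to 87.6% and the effective number 1.31 to 2.22. Few reads limit Traj, Trdv and Tcrg-V shares and all of ALK1's alpha profile, and 3 reads were worth 0.159 to 0.240 CPM.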
